A study of Mus musculus with 10 samples.

Results

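Bone is removed by osteoclasts, large cells that form when precursors of the macrophage lineage fuse, and stromal cells around them make the signals for that step. Csf1 (M-CSF) and Il34 encode ligands of the receptor made from Csf1r and keep the precursors alive, while Tnfsf11 (RANKL) binds its receptor RANK and drives them to become osteoclasts. Tnfrsf11b encodes osteoprotegerin (OPG), a secreted decoy receptor that binds RANKL and holds it away from RANK, so the balance of Tnfsf11 to Tnfrsf11b is widely used as a measure of the osteoclast-forming signal of a stroma. Marrow stromal cells of the adipocyte lineage and bone cells are known sources of these factors. The 4 genes were chosen by symbol and make up 4 of the 15078 genes in a table of normalized read counts.

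RNA was sequenced from 10 libraries of sorted mouse cells. The graft BM-MSC group (n = 4) held bone marrow mesenchymal stem cells that were CD51+, CD200+ and Tomato+, from femurs of Postn Cre-ER;tdTomato donors that had been placed under the skin of wild-type recipients and taken out 5 months after surgery. Recipients were given tamoxifen from shortly after surgery, which turns on the red protein Tomato in cells that use Postn and leaves it on in their descendants, and Postn is also used by osteoblasts and fibroblasts, so the mark is not particular to stem cells. The BM-MSC group (n = 3) and the P-SSC group (n = 3, periosteal skeletal stem cells, from the membrane that covers bone) held CD45-Ter119-CD31-CD51+CD200+ cells of wild-type mice at steady state, with no treatment and no surgery. Genotype, transplantation, the 5 months since surgery and any difference in age or tamoxifen thus cannot be told apart in either comparison with the graft. BM-MSC 2+4 and P-SSC 2+5 each joined the RNA of 2 mice, the 6 steady-state libraries were taken over from another series, and mice were 6 to 12 weeks old where the methods do not say otherwise. In such bulk libraries, fewer cells of a type and less RNA per cell cannot be told apart.

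The libraries held between 15415421 and 25223295 reads. The labelled cell types were checked by their markers. The summed normalized read count of 9 genes of marrow adipocyte-lineage stroma was 725799 to 864503 in the graft, 863457 to 1178445 in BM-MSCs and 9484 to 17955 in P-SSCs, and that of 6 periosteal genes was 1278 to 2994, 8057 to 12316 and 358168 to 578915. Postn itself was at 0 in graft BM-MSC 1, 2 and 3 and at 234.8 in graft BM-MSC 4. It measured 3757 to 5041 in BM-MSCs and 16558 to 24829 in P-SSCs, so its use at steady state was not particular to the periosteum. Some libraries stood apart in ways that touch the results. Genes with over 65% GC were high in the 4 graft libraries and P-SSC 4 (1.52 to 2.80 on the log2 scale, relative to genes with 50 to 60% GC) and low in the 3 BM-MSC libraries, P-SSC 1 and P-SSC 2+5 (-1.81 to -1.51), so this GC difference and the group cannot be told apart between graft BM-MSCs and BM-MSCs. In graft BM-MSC 2, 8.78% of the genes that reached 100 in all the other graft libraries were at 0, and by the same measure within each group 0.0135% to 2.54% were at 0 in the other 9 libraries. Graft BM-MSC 3 had the highest sum of 8 neutrophil genes, at 110144, with 5624 to 11926 in the other graft libraries, 29528 to 87635 in BM-MSCs and 12.6 to 110.1 in P-SSCs.

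The genes lie apart from each other in the genome, all on the minus strand (GRCm38, GENCODE M21). Tnfsf11 (ENSMUSG00000022015) spans chr14:78277445-78308043, Tnfrsf11b (ENSMUSG00000063727) chr15:54250619-54278484, Csf1 (ENSMUSG00000014599) chr3:107741048-107760469 and Il34 (ENSMUSG00000031750) chr8:110741829-110805924. Their exons cover 2236, 2818, 5281 and 1959 bases, in that order, with a GC content of 44.9%, 42.87%, 54.38% and 56.96%. Il34 overlaps 2 antisense genes, Gm15894 and Gm15895. Whether the libraries kept strand was not stated, so reads of Il34 and of these partners cannot be told apart here.

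Promoters are shown for Tnfsf11 and Csf1, the pair that was called higher in graft BM-MSCs than in P-SSCs beside Il34. The sequences are the 150 bases before the start site, on the minus strand of GRCm38.p6, from RefSeq, and capitals mark motif matches. They span chr14:78308044-78308193 for Tnfsf11 and chr3:107760470-107760619 for Csf1.
Tnfsf11: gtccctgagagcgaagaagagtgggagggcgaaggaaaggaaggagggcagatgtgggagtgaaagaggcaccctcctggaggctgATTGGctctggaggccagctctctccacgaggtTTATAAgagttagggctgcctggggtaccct
Csf1: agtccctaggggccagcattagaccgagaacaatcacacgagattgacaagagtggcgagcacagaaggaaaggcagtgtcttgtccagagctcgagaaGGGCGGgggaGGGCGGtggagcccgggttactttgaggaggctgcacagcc
A search of both strands for TATAA, then CCAAT, then GGGCGG (the GC box), then TGACTCA (an AP-1 site) and also the EBF motif found different elements in each. The Tnfsf11 window held TATAA from 30 bases before the start on the plus strand of the gene, overlapped by a match on the other strand from 31, and CCAAT on the other strand from 64 bases before it. The Csf1 window held no TATAA or CCAAT and 2 GC boxes, from 51 and 41 bases before the start. Of 32851 mouse promoters of the same length, 14.15% held TATAA, 24.5% held CCAAT, 28.62% held GGGCGG, 2.84% held TGACTCA and 0.4475% held the EBF motif. The GC content of the windows was 58.67% for Tnfsf11 and 59.33% for Csf1, with a median of 54% over all promoters. These matches are a description of the letters and not of bound sites. The promoters of Tnfrsf11b and Il34 are not shown here.

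Tnfsf11, the ligand that starts osteoclast formation, had its highest values in the graft and varied the most there. Its normalized read count (reads over the size factor of each library) was 1027, 244.6, 35.2 and 1304 in graft BM-MSC 1 to 4. In BM-MSCs it was 111.7 in library 1, 35.9 in library 2+4 and 48.3 in library 3. P-SSC 1 and P-SSC 2+5 had no read of Tnfsf11, which allows up to 3 reads, or 3.12 and 3.82 on the normalized scale, and P-SSC 4 had 36.8. The graft values thus ran from the level of the lowest BM-MSC library to above all other libraries, and graft BM-MSC 3, at 35 reads, lay just under P-SSC 4, at 38 reads. Tnfsf11 averaged 652.7 ± 608.9 (SD, n = 4) over the graft libraries, 65.3 ± 40.7 (SD, n = 3) over those of BM-MSCs and 12.3 ± 21.3 (SD, n = 3) over those of P-SSCs.

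**Figure D1:**
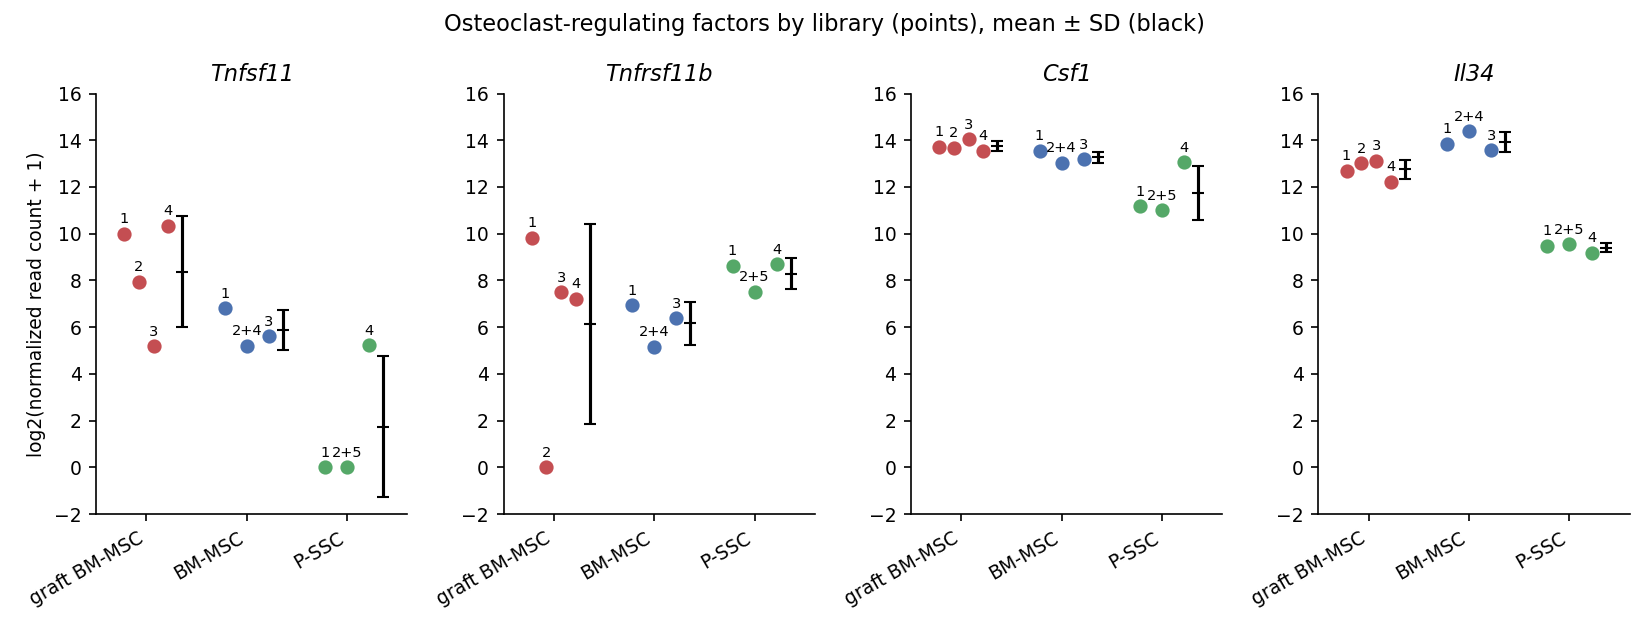
Normalized read count of each factor in each library, as log2(value + 1) on the y axis and the 3 groups on the x axis, with the library number beside each point and the mean ± SD in black. Il34 fell into 3 groups that did not overlap, while Tnfsf11 and Tnfrsf11b had libraries with no read, and P-SSC 4 lay near the BM-MSC libraries for Csf1.

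Tnfrsf11b, the decoy receptor, showed no such order. Its values were 913.5, 0, 181.3 and 147.6 in graft BM-MSC 1 to 4, so the graft held both the highest and the lowest value of all libraries. The 0 was in graft BM-MSC 2, the library with the most such zeros, and allows up to 3 reads, or 2.53 on the normalized scale. BM-MSC libraries measured 121.2, 34.8 and 82.8 and P-SSC libraries 396.8, 183.4 and 416.8 (P-SSC 1, 2+5 and 4). Every P-SSC library was thus above every BM-MSC library, with averages of 332.3 ± 129.3 (SD, n = 3) and 79.6 ± 43.3 (SD, n = 3). The graft average of 310.6 ± 409.6 (SD, n = 4) rests on library 1.

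Csf1, the main growth factor of macrophages and osteoclast precursors, was abundant in all marrow libraries. Its normalized read count was 13448, 13208, 17032 and 12031 in graft BM-MSC 1 to 4, and 11941, 8468 and 9386 in BM-MSC 1, 2+4 and 3. P-SSC 1 and P-SSC 2+5 measured 2308 and 2050, but P-SSC 4 measured 8529. Every graft library was above every library of the other groups, and the P-SSC libraries split, with P-SSC 4 just above the lowest BM-MSC library. Csf1 averaged 13930 ± 2159 (SD, n = 4) over the graft libraries, 9932 ± 1800 (SD, n = 3) over those of BM-MSCs and 4296 ± 3669 (SD, n = 3) over those of P-SSCs.

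Il34, the second ligand of the Csf1 receptor, was the only member without overlap between any of the 3 groups. How many of all genes had no such overlap was not counted. It measured 14780, 21554 and 12108 in BM-MSC 1, 2+4 and 3, and 6627, 8354, 8923 and 4794 in graft BM-MSC 1 to 4. The P-SSC libraries measured 716.7, 752.8 and 580.6. No library of one group reached the range of another, and P-SSC 4 did not stand apart from P-SSC 1 and 2+5 as it did for Csf1. Il34 averaged 16147 ± 4869 (SD, n = 3) over the BM-MSC libraries, 7175 ± 1863 (SD, n = 4) over those of the graft and 683.4 ± 90.8 (SD, n = 3) over those of P-SSCs.

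The 4 genes were set against each other only per length, as the normalized read count per kilobase of exon. On that scale Il34 had the highest level in marrow, at 8243 ± 2486 (SD, n = 3) for BM-MSCs, followed by 3662 ± 951 (SD, n = 4) for the graft, and it ranked 75 to 122 of 15052 genes in the BM-MSC libraries and 168 to 333 in the graft libraries. Csf1 followed at 1881 ± 340.8 (SD, n = 3) and 2638 ± 408.9 (SD, n = 4), with ranks of 413 to 655 and 246 to 354. In P-SSCs the level of Csf1 was 813.4 ± 694.7 (SD, n = 3) and that of Il34 348.8 ± 46.4 (SD, n = 3), and within P-SSC 1 and 2+5 the levels of both were close (437.04 and 365.9, and 388.1 and 384.3). Tnfsf11 and Tnfrsf11b were at the lower end everywhere. Their levels per kilobase were 291.9 ± 272.3 and 110.2 ± 145.3 (SD, n = 4) for the graft, 29.2 ± 18.2 and 28.2 ± 15.4 (SD, n = 3) for BM-MSCs, whereas P-SSCs had 5.49 ± 9.51 and 117.9 ± 45.9 (SD, n = 3), and the spread of the 2 genes overlapped in the first 2 groups but not in P-SSCs.

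Marrow cells of the graft were set against P-SSCs, which asks how cells with the Postn mark differ from periosteal cells at steady state. The log2 change of Il34 was 3.36 (SE 0.28, limma, Benjamini-Hochberg adjusted p = 3.36e-05), that of Csf1 2.01 (SE 0.42, limma, adjusted p = 0.00792) and that of Tnfsf11 6.62 (SE 1.68, limma, adjusted p = 0.0205). These 3 rose and the change of Tnfrsf11b was -2.15 (SE 1.90, limma, adjusted p = 0.467). Of all 13644 genes tested in this comparison, 18.1% passed, 6.08% as higher and 12.0% as lower in the graft, with a median change of -0.47 over all genes. The groups did not overlap for Il34 and Csf1 and overlapped for Tnfsf11 and Tnfrsf11b. How many of all genes tested had groups without overlap was not counted in any comparison, so nothing is read from the lack of overlap. The sizes are differences of log2(value + 1), and that of Tnfsf11 ran from 5.07 to 8.84 with a pseudocount of 5 and 0.1, since 2 of the P-SSC libraries had no read.

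Csf1 passed without each of the 10 libraries in turn, with log2 changes of 1.64 to 2.67 (limma, adjusted p = 6.59e-05 to 0.0468), whereas the call of Tnfsf11 depended on single libraries. With P-SSC 4, the P-SSC library in which GC-rich genes were high, as the only P-SSC library, the log2 change of Csf1 was 0.70 and that of Tnfsf11 3.13, and neither passed in a limma fit that takes this lone library to vary as the other groups do. Without P-SSC 4 they were 2.67 (limma, adjusted p = 6.59e-05) and 8.37 (limma, adjusted p = 0.00547). After a correction of every library for the GC content of its genes, both were still called, with 2.75 for Csf1 (limma, adjusted p = 0.00116) and 7.04 for Tnfsf11 (limma, adjusted p = 0.00979). Leaving out P-SSC 1 or P-SSC 2+5 ended the call of Tnfsf11, with a log2 change of 5.75 either way (limma, adjusted p = 0.0912 and 0.0850), as did leaving out graft BM-MSC 1, with 6.08 (limma, adjusted p = 0.0504). The log2 change of Tnfrsf11b was -0.10 without graft BM-MSC 2 (limma, adjusted p = 0.953). Il34 passed under all 24 alternatives, with log2 changes of 3.23 to 4.02.

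**Figure D2:**
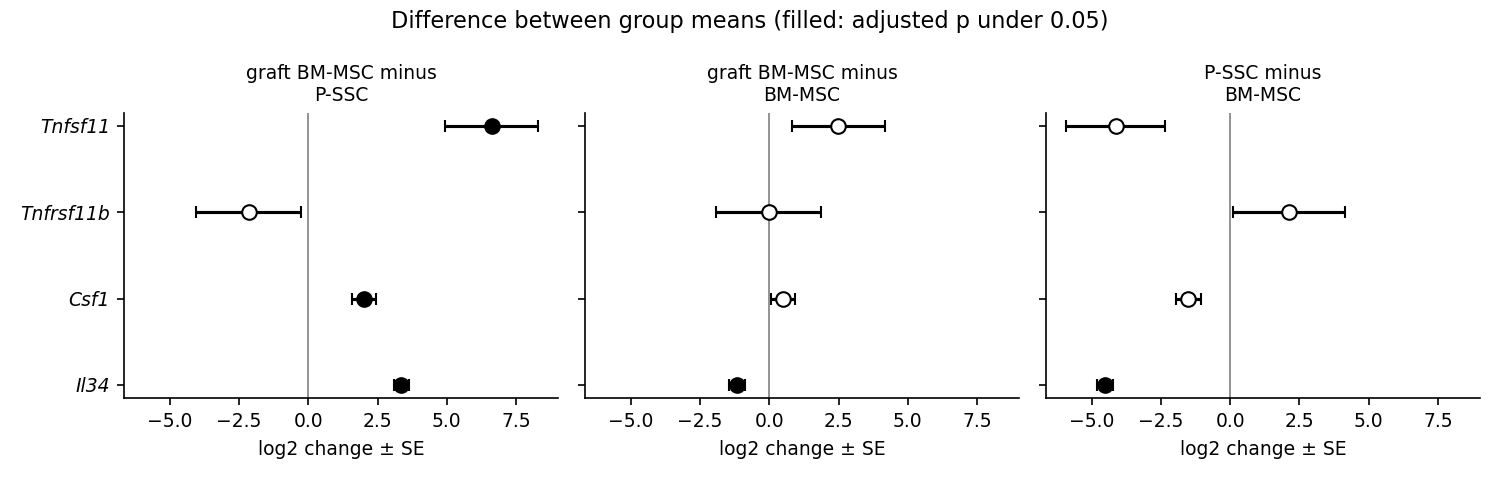
Difference of group means on the log2(value + 1) scale (x axis, ± SE) for each factor (y axis) in the 3 comparisons, with filled points for an adjusted p under 0.05 in limma. Il34 was filled in all 3 panels, Csf1 and Tnfsf11 in graft BM-MSCs minus P-SSCs, and Tnfrsf11b in none.

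Graft BM-MSCs were next compared with BM-MSCs, which asks how stroma rebuilt in the graft differs from marrow stroma that was left in place. Il34 was the only member called, and it was lower in the graft by a log2 change of -1.17 (SE 0.28, limma, adjusted p = 0.0303). Of all genes tested 7.67% passed, 2.61% as higher and 5.06% as lower, with a median change of -0.53 over all genes, so that Il34 lay -0.64 from that median. The call of Il34 was lost after quantile normalization (-0.88, limma, adjusted p = 0.0720), after the correction for GC content (-0.58, limma, adjusted p = 0.467) and when graft BM-MSC 1, graft BM-MSC 4, BM-MSC 1 or BM-MSC 2+4 was left out (-1.14, -0.99, -1.21 and -0.94, limma, adjusted p = 0.0614, 0.0507, 0.0857 and 0.139). The log2 change of Csf1 was 0.49 (SE 0.42, limma, adjusted p = 0.496), with every graft library above every BM-MSC library, which is not a test. That of Tnfsf11 was 2.49 (SE 1.68, limma, adjusted p = 0.379), with graft BM-MSC 3 below all BM-MSC libraries and the other 3 above them. That of Tnfrsf11b was -0.02 (SE 1.90, limma, adjusted p = 1), and 2.03 without graft BM-MSC 2 (limma, adjusted p = 0.163).

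The third comparison, of P-SSCs with BM-MSCs, asks how both stem cell types differ at steady state. Il34 was lower in P-SSCs by a log2 change of -4.53 (SE 0.29, limma, adjusted p = 1.01e-05), and it passed under all 24 alternatives, with changes of -4.75 to -4.07. Of all genes tested 9.15% passed, 4.57% as higher and 4.58% as lower in P-SSCs, with a median change of 0.00. The log2 change of Csf1 was -1.52 (SE 0.45, limma, adjusted p = 0.0674), and without P-SSC 4 it was -2.18 and passed (limma, adjusted p = 0.000275). The changes of Tnfsf11, -4.13 (SE 1.79, limma, adjusted p = 0.240), and Tnfrsf11b, 2.13 (SE 2.03, limma, adjusted p = 0.780), did not pass. All 3 values of Tnfrsf11b in P-SSCs were above all 3 in BM-MSCs, which is not a test and was not counted over all genes. The fit takes 1 spread per gene from all 10 libraries, graft BM-MSC 2 included. Without graft BM-MSC 2 the adjusted p of Tnfrsf11b in this comparison was 0.167 (limma), with the same log2 change.

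The ratio of Tnfsf11 to Tnfrsf11b was taken within each library, per length, so that differences in depth drop out. It was 1.16, 1.30 and 0.735 in BM-MSC 1, 2+4 and 3, close to even. In the graft it was 1.42, at least 121.8, 0.245 and 11.1 in libraries 1 to 4, where the bound stands for 3 reads of Tnfrsf11b in graft BM-MSC 2. In P-SSCs it was at most 0.00990 in library 1, at most 0.0263 in library 2+5 and 0.111 in library 4. The P-SSC ratios were thus below those of all other libraries, the BM-MSC ratios lay within a narrow range, and the graft ratios ran from below to far above that range. On the scale of log2((Tnfsf11 + 1)/(Tnfrsf11b + 1)) the averages were 2.23 ± 4.41 (SD, n = 4) for the graft, -0.28 ± 0.43 (SD, n = 3) for BM-MSCs, while P-SSCs averaged -6.54 ± 2.72 (SD, n = 3).

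The difference in this log2 ratio was 8.77 for graft BM-MSCs against P-SSCs (exact permutation test, two-sided, p = 0.0571, adjusted p = 0.15 over 3 comparisons) and -6.26 for P-SSCs against BM-MSCs (exact permutation test, p = 0.1, adjusted p = 0.15). These are the smallest p-values that 35 arrangements of 4 against 3 libraries and 20 arrangements of 3 against 3 allow, so no ratio test here can pass 0.05. For graft BM-MSCs against BM-MSCs the difference was 2.51 (exact permutation test, p = 0.4, adjusted p = 0.4), and it was 0.60 without graft BM-MSC 2, in which Tnfrsf11b had no read. Among libraries in which GC-rich genes were high, the log2 ratio of the graft was above that of P-SSC 4 by 5.69, and among those in which they were low, P-SSC 1 and 2+5 differed from BM-MSCs by -7.80. The direction of the differences from P-SSCs did not turn under any alternative tried.

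**Figure D3:**
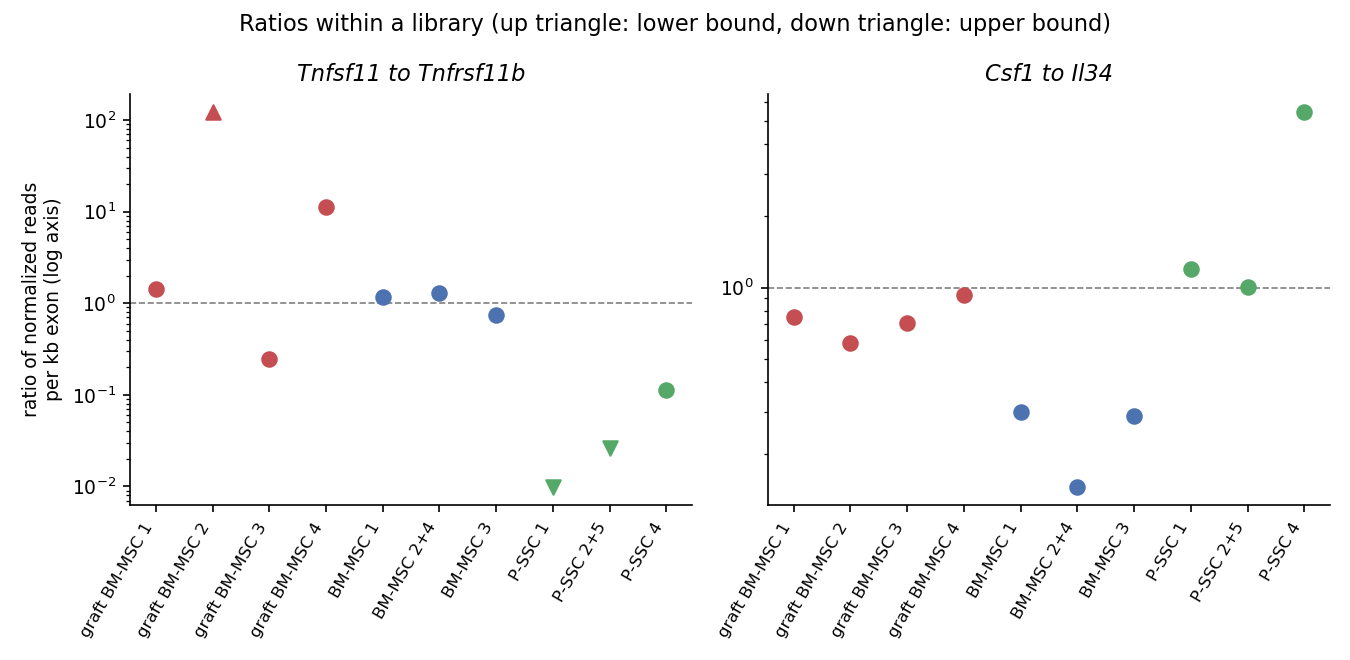
Ratio of Tnfsf11 to Tnfrsf11b and of Csf1 to Il34 in each library, as normalized reads per kilobase of exon on a log axis (y), with libraries on the x axis, red for graft BM-MSCs, blue for BM-MSCs and green for P-SSCs. Triangles are bounds where one gene of the pair had no read, and the dashed line marks a ratio of 1, around which the BM-MSC libraries lay for Tnfsf11 to Tnfrsf11b.

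The ratio of Csf1 to Il34, the pair of ligands that share a receptor, ordered the groups in another way. Per length it was 0.2997, 0.146 and 0.288 in BM-MSC 1, 2+4 and 3, 0.753, 0.586, 0.708 and 0.931 in graft BM-MSC 1 to 4, and 1.19, 1.01 and 5.45 in P-SSC 1, 2+5 and 4. By exon length, Il34 was thus ahead of Csf1 in every marrow library and Csf1 ahead of Il34 in every P-SSC library. The graft lay between both steady-state groups with no overlap. Which gene is ahead depends on the length used where the ratio is near 1, as in graft BM-MSC 4 and P-SSC 2+5. Exons cover 5281 bases for Csf1 and 1959 for Il34, and the longest transcripts have 4176 and 1796. The log2 ratio with a pseudocount of 1, not scaled for length, was -0.67 ± 0.58 (SD, n = 3) for BM-MSCs, 0.99 ± 0.27 (SD, n = 4) for the graft, and 2.33 ± 1.34 (SD, n = 3) for P-SSCs. The differences were -1.35 for graft BM-MSCs against P-SSCs and 1.66 for graft BM-MSCs against BM-MSCs (two-sided exact permutation test, p = 0.0571 and adjusted p = 0.0857 for each), and 3.01 for P-SSCs against BM-MSCs (exact permutation test, p = 0.1, adjusted p = 0.1). Again none could go lower. The spread within P-SSCs came from P-SSC 4, without which the difference between graft BM-MSCs and P-SSCs was -0.58.

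The receptors and binding partners of the factors were examined next. Tnfrsf11a, which encodes RANK, is not analysed here. Csf1r, the receptor of both Csf1 and Il34, was low in all groups, with 0, 0, 281.98 and 101.8 in graft BM-MSC 1 to 4, 204.7, 19.0 and 0 in BM-MSC 1, 2+4 and 3, and 21.8, 40.8 and 65.9 in P-SSC 1, 2+5 and 4. It did not pass in any comparison, and the highest value was in graft BM-MSC 3, which also had the highest sum of macrophage and monocyte genes in the graft, at 15462, with 1679 to 2443 in the other graft libraries. Sdc1, a membrane proteoglycan that binds Il34, measured 6435 to 9916 in the graft, 5151 to 8756 in BM-MSCs and 116.3, 143.9 and 949.95 in P-SSC 1, 2+5 and 4. It rose in graft BM-MSCs against P-SSCs by 4.95 on the log2 scale (SE 0.61, limma, adjusted p = 0.000314) and was lower in P-SSCs than in BM-MSCs by a log2 change of -4.67 (SE 0.65, limma, adjusted p = 0.000907). Ptprz1, another receptor of Il34, measured 0 to 546.4 in the graft, 191.1 to 225.7 in BM-MSCs and 1.27 to 39.7 in P-SSCs, and Lgr4, which binds RANKL, 57.8 to 355.0, 28.5 to 138.1 and 15.3 to 298.6, and neither passed in any comparison.

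All 18 genes listed as acting upstream of Tnfsf11 in stromal cells were tested. In graft BM-MSCs against P-SSCs 5 were higher, 3 lower and 10 did not pass, with a median log2 change of 0.55 beside -0.47 over all genes. Runx2, the transcription factor of the bone lineage, rose by 5.38 (SE 0.47, limma, adjusted p = 4.65e-05), Pth1r, the parathyroid hormone receptor, by 4.25 (SE 0.77, limma, adjusted p = 0.00318) and Lifr, a receptor of the interleukin 6 family, by 3.503 (SE 0.32, limma, adjusted p = 6.71e-05). Il6ra, which binds interleukin 6, was at 0 in all 4 graft libraries and at least 113.5-fold lower there than in P-SSCs, with the bound set by 3 reads a library. It measured 38.4, 101.9 and 697.0 in P-SSC 1, 2+5 and 4, and without P-SSC 4 the bound was 28.5-fold. Leaving out a library for such bounds was chosen after seeing the data. Pth1r measured 1470 in P-SSC 4, compared with 173.5 and 90.4 in P-SSC 1 and 2+5 and 3452 to 7633 in the graft.

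In P-SSCs against BM-MSCs 2 of these 18 genes were higher, 6 lower and 10 did not pass, with a median log2 change of -0.87 beside 0.00. Runx2 (-4.16), Vdr (-4.07), which encodes the vitamin D receptor, and Lifr (-3.69) were lower in P-SSCs and Il6ra (6.19) was higher. In graft BM-MSCs against BM-MSCs only Nr3c1, the glucocorticoid receptor, rose, by 1.88 (SE 0.44, limma, adjusted p = 0.0303), and only Stat3, a transcription factor downstream of the interleukin 6 family, was lower, by a log2 change of -1.005 (SE 0.17, limma, adjusted p = 0.00814), with a median of -0.23 over the 18 genes beside -0.53.

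**Figure D4:**
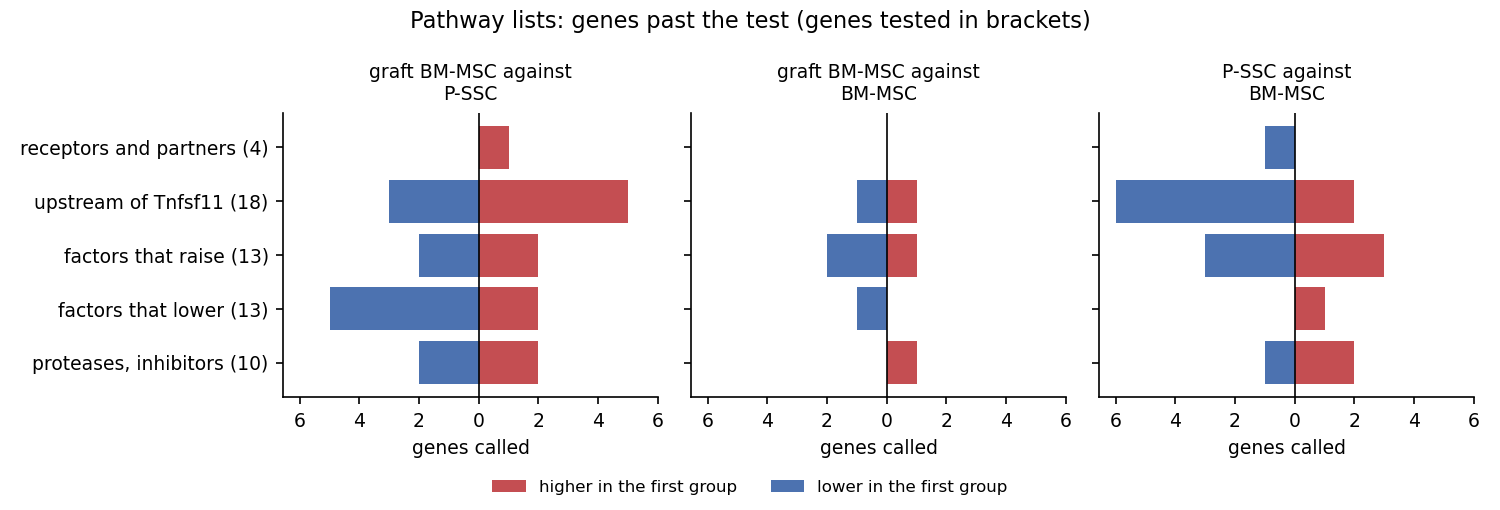
Number of genes called (x axis, adjusted p under 0.05 in limma) as higher (red, right) or lower (blue, left) in the first group of each comparison, for 5 lists of genes around the 4 factors (y axis, genes tested in brackets). Genes upstream of Tnfsf11 had 5 higher and 3 lower in graft BM-MSCs against P-SSCs and 2 higher and 6 lower in P-SSCs against BM-MSCs.

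Of 18 secreted cytokines and mediators listed as raising osteoclast formation, 13 were tested, and their effect on osteoclasts was not measured. In graft BM-MSCs against P-SSCs 2 were higher, 2 lower and 9 did not pass (median -0.61). Cxcl12, the chemokine of the stem cell niche, rose by 7.003 (limma, adjusted p = 7.25e-08) and Spp1, the bone matrix protein osteopontin, by 3.07 (limma, adjusted p = 3.47e-05). Pthlh, which encodes parathyroid hormone-related protein, was at 0 in all 4 graft libraries and at least 617.5-fold lower there than in P-SSCs, where it measured 1912, 1446 and 1197. Ptgs2, the cyclooxygenase that starts prostaglandin synthesis, came to 0, 0, 44.3 and 0 in graft BM-MSC 1 to 4 and 4250, 4815 and 1178 in P-SSC 1, 2+5 and 4 (log2 change -10.12, SE 1.46, limma, adjusted p = 0.000833).

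Against BM-MSCs, 1 of the 13 was higher in the graft, 2 lower and 10 did not pass (median -0.45). Il6, which encodes interleukin 6, came to 97.2, 894.7, 247.7 and 410.0 in graft BM-MSC 1 to 4 and 13.6, 20.04 and 46.4 in BM-MSCs (log2 change 3.66, SE 0.88, limma, adjusted p = 0.0322). Osm, which encodes oncostatin M, was at 0 in all graft libraries, at least 60.8-fold lower than in BM-MSCs. It measured 27.2, 371.2 and 50.3 in BM-MSC 1, 2+4 and 3, and without BM-MSC 2+4 the bound was 15.8-fold. Spp1 was lower by a log2 change of -1.05 (SE 0.25, limma, adjusted p = 0.0329). In P-SSCs against BM-MSCs 3 were higher, 3 lower and 7 did not pass (median 0.55), with Pthlh (8.03) and Il6 (5.73) among the higher, and Cxcl12 (-7.45) and Osm, at least 45.6-fold (11.8-fold without BM-MSC 2+4), among the lower.

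Of 16 factors listed as lowering osteoclast formation, 13 were tested. The effect of these genes on osteoclasts was not measured. No call in this list, Gas6 and Fstl1 included, is read as a signal against osteoclasts. In graft BM-MSCs against P-SSCs 2 were higher, 5 lower and 6 did not pass (median -1.65). Sema3a, a semaphorin that restrains osteoclasts, measured at most 2.26 in the graft and 286.7, 224.2 and 121.2 in P-SSCs (log2 change -7.21, SE 1.11, limma, adjusted p = 0.00121). Tgfb2 was lower by a log2 change of -6.25 (SE 1.87, limma, adjusted p = 0.0427), and Wnt16, at 0 in all graft libraries, by at least 30.2-fold. Gas6, a secreted ligand of receptor tyrosine kinases, rose by 5.53 (SE 1.03, limma, adjusted p = 0.00401), but it measured 20685 in P-SSC 4, compared with 568.2 and 529.9 in P-SSC 1 and 2+5. Against BM-MSCs only Sema3a passed, as lower in the graft (-5.14, SE 1.11, limma, adjusted p = 0.0215, median of the 13 genes -0.44). In P-SSCs against BM-MSCs only Fstl1, a secreted follistatin-like protein, passed, as higher (1.32, SE 0.32, limma, adjusted p = 0.0267, median 1.47).

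RANKL and Csf1 are made as membrane proteins and released by proteases, and 10 of 11 listed proteases and their inhibitors were tested. Of these, Mmp13 (4.42) and Furin (2.67) rose and Timp3 (-3.91) and Mmp2 (-3.06) fell in graft BM-MSCs against P-SSCs, with 6 not passing and a median of 0.14. In P-SSCs against BM-MSCs Timp3 (3.04) and Mmp2 (2.57) were higher and Mmp13 (-5.78) lower, with 7 not passing and a median of 0.59. Against BM-MSCs, Mmp14 was higher in the graft (2.92, SE 0.66, limma, adjusted p = 0.0259) and 9 did not pass, with a median of -0.10. Mmp14 measured 12175 in P-SSC 4, and 1326 and 1459 in P-SSC 1 and 2+5. Over the 5 lists together 12 of 58 genes tested passed as higher and 12 as lower in graft BM-MSCs against P-SSCs (20.7% each, beside 6.08% and 12.0% of all genes tested). Against BM-MSCs 3 were higher and 4 lower in the graft (5.17% and 6.90%, beside 2.61% and 5.06%). In P-SSCs against BM-MSCs 8 were higher and 11 lower (13.8% and 19.0%, beside 4.57% and 4.58%). The lists were chosen with earlier results known, and nothing is read from these shares.

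Cells that respond to these factors, or that could bring their own transcripts, were checked by marker genes. Of 6 osteoclast genes in the table, Calcr, the calcitonin receptor, was at 0 in all 7 marrow libraries and 44.7 to 71.3 in P-SSCs, and Ctsk, which periosteal and marrow stroma also use, was read in every library, at 3375 to 9680, and made up 44.2% to 86.8% of the sum. Mmp9, a protease of osteoclasts and also of neutrophils, measured 979 to 1697 in the graft, 1531 to 3877 in BM-MSCs and 0 to 5.82 in P-SSCs. It was called higher in graft BM-MSCs than in P-SSCs (log2 change 9.54, SE 0.75, limma, adjusted p = 2.57e-05) and lower in P-SSCs than in BM-MSCs (-10.37, SE 0.80, limma, adjusted p = 3.02e-05). Mmp9 was the only 1 of the 6 called higher in the graft than in P-SSCs, with Calcr lower and 4 not passing. The median log2 change of the 6 was -2.29 there, beside -0.47 over all genes. In P-SSCs against BM-MSCs it was 0.56, and against BM-MSCs the graft had -0.82 with none called. The sum of these 6 genes was 6869 to 11523 in the graft, 7639 to 9679 in BM-MSCs and 8093 to 9353 in P-SSCs. Red cell genes (8 of 8 in the table) summed to 1483 to 27755 in the graft, 58845 to 212037 in BM-MSCs and 201.5 to 1407 in P-SSCs. The 9 macrophage and monocyte genes summed to 1679 to 15462, 4599 to 17820 and 814.3 to 2794, with Adgre1 at 0 in every graft library and Ptprc and Itgam at 0 in every P-SSC library. T cell genes (4 in the table), which could bring Tnfsf11, summed to 52.0, 52.3, 5.04 and 133.8 in graft BM-MSC 1 to 4. Their sum was 12.7 to 36.6 in BM-MSCs and 0 to 21.8 in P-SSCs. Graft BM-MSC 4, with the highest of these sums, also had the most Tnfsf11. Graft BM-MSC 3, with the lowest sum in the graft, had the least Tnfsf11 there. The order was not kept elsewhere. Graft BM-MSC 1 and 2, with sums of 52.0 and 52.3, had 1027 and 244.6 of Tnfsf11. P-SSC 4, with a sum of 0, had 36.8, and P-SSC 1 and 2+5, with 21.8 and 14.0, had no read of it. Whether T cells brought Tnfsf11 was not tested. B cell genes (6 in the table) summed to 0 to 301.1 in the graft, 351.9 to 1237 in BM-MSCs and 213.3 to 836.2 in P-SSCs.

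The other marker lists also moved between the groups. Osteoblast and osteocyte genes (10 in the table) summed to 78414 to 105997 in the graft, 601444 to 1293555 in BM-MSCs and 193504 to 431919 in P-SSCs. Col1a1, the main collagen of bone, made up 91.3% to 95.9% of the sum in P-SSCs and 12.1% to 31.8% in the graft, and it was lower in the graft than in P-SSCs (log2 change -4.17, SE 0.47, limma, adjusted p = 0.000202). Ibsp (4.00), Sp7 (3.02) and Alpl (1.65) were instead higher in the graft than in P-SSCs, with a median of 1.65 over the 9 genes tested, beside -0.47 over all genes. Chondrocyte genes (7 in the table) summed to 6053 to 14336, 34799 to 78551 and 7946 to 18497, and endothelial genes (6 in the table) to 0 to 275.3, 217 to 533.6 and 3432 to 7106. Tek made up 92.5% to 96.7% of the endothelial sum in P-SSCs, while Emcn and Tie1 were at 0 in all graft and P-SSC libraries and called lower in both than in BM-MSCs. The sort markers Itgav (CD51) and Cd200 were read in every library, with a sum of 2573 to 3962 in the graft, 2058 to 3507 in BM-MSCs and 1781 to 2467 in P-SSCs. The part of other cells in the levels of the 4 factors was not tested.

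Genes whose pattern was most like that of each factor were taken by the Pearson correlation of log2(value + 1) over all 10 libraries, among 9546 genes with a mean of at least 100. These values describe libraries that fall into 3 groups and share depth and GC differences, and they carry no test. For Il34 they were H2-D1 (r = 0.997), Serpine2 (0.994) and P2rx2 (0.991), and for Csf1 Crlf2 (0.987), Saraf (0.985) and Lgr5 (0.979). For Tnfsf11 they were Eif4e3 (0.951), Yaf2 (0.950) and Rspo2 (0.947), and for Tnfrsf11b Ank2 (0.973), Ubtd2 (0.972) and Fbxo21 (0.965). The 3 genes most like Tnfrsf11b share its low value or 0 in graft BM-MSC 2, the library with many zeros.

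**Figure D5:**
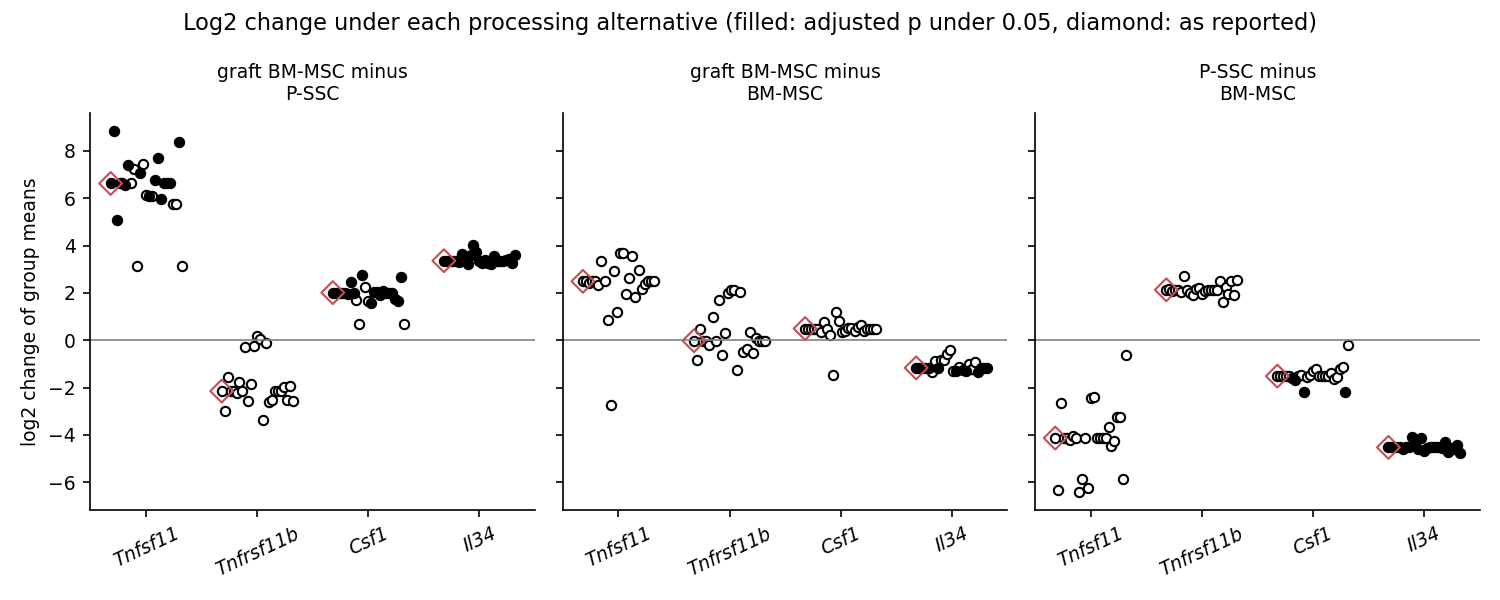
Log2 change of each factor (x axis, grouped by gene) under the reported setting (diamond) and under each alternative (other points) in the 3 comparisons, filled where the adjusted p was under 0.05 in the tool used. Il34 kept its direction throughout and stayed filled in both comparisons with P-SSCs, while the points of Tnfsf11 spread from 3.13 to 8.84 in graft BM-MSCs minus P-SSCs.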

How the data were processed

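RNA was sequenced from 10 libraries of sorted cells. Per the labels, reads were checked with FastQC 0.11.5, trimmed with cutadapt 1.15, aligned with STAR 2.5 to GRCm39, counted with featureCounts (Subread 1.4.6) and scaled with DESeq2 1.26.0, while the methods of the study name GRCm38 and another STAR release. Coordinates and lengths here come from GENCODE M21 (GRCm38), in which 15052 of the 15078 Ensembl IDs were found. The deposited values are a signal, read counts scaled by library size factors, and the authors gave 1 table of all libraries. Values were whole multiples of the value of 1 read in 100% of cases (tolerance 0.01 reads), which gave the reads per library and a floor of 3 reads. Floors cover counting error only.

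The 4 members, the pathway and marker lists and the tests were chosen with earlier results of these data known. Values were analysed as log2(value + 1). Genes with a mean of at least 10 (13644, with 1434 removed) were fitted with limma 3.58.1 in R 4.3.3, with 1 mean per group over all 10 libraries, 7 residual degrees of freedom and a variance trend, and two-sided p-values were Benjamini-Hochberg adjusted over all genes tested at a threshold of 0.05. Ratios were compared by two-sided exact permutation tests (scipy), adjusted over 3 comparisons. Per the methods of the study the replicates held RNA of distinct mice, and whether marrow and periosteum of 1 mouse were both used was not stated. Named genes were the members, the receptors, up to 4 called genes per pathway list and comparison, the 3 genes most correlated with each member, and marker genes at 0 or leading a list. Alternatives were pseudocounts of 0.1 and 5, no filter, and a filter at a mean of at least 100. Further ones were median centring, quantile normalization, fits of 2 groups only, a replicate block and a GC class covariate. A GC correction (loess, span 0.3), edgeR 4.0.16 and DESeq2 1.42.0 on recovered reads, and leaving out each library were also tried. The count tools used 9 libraries, without graft BM-MSC 3. Its values were whole multiples of 1.007, a step so near 1 that the check of units could not verify it. As this library had the lowest Tnfsf11 of the graft, the fits with these tools and with limma do not rest on the same libraries. The limma fit was run on simulated data with 200 changed genes and the same spread setting for all genes. The simulation had no GC differences and no library with many zeros, so it does not test the fit under those.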

Additional observations from a re-analysis of the deposited data

How the results depend on the processing

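The directions of Il34 in all 3 comparisons, and its calls against P-SSCs, held under every alternative run, as did the direction of Csf1 and Tnfsf11 in graft BM-MSCs against P-SSCs. Of 284 alternative values of log2 changes, 241 kept the direction and the side of the threshold, of 68 of ratio differences, 67 kept the direction, and of 71 counts of members called, 47 were equal to the count first given. In graft BM-MSCs against P-SSCs, 3 members were called, and 1 was called with a GC class covariate (log2 change 0.70 for Csf1 and 3.13 for Tnfsf11), with P-SSC 4 as the only P-SSC library (0.70 and 3.13, chosen after seeing the data, with the lone library taken to vary as the other groups do) and with edgeR (1.65 and 6.14). With the GC correction 3 were called. A fit of 2 groups only lost Tnfsf11 (6.62). Tnfrsf11b turned to 0.18 with edgeR and 0.056 with DESeq2, which were run without graft BM-MSC 3. Leaving out each library moved Tnfsf11 between 5.75 and 8.37.

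In graft BM-MSCs against BM-MSCs, 1 member was called and 0 with median centring (Il34 -1.33), quantile normalization (-0.88), the GC class covariate (-0.83), the GC correction (-0.58) and edgeR (-1.31). Leaving out each library gave 0 or 1, with Il34 between -1.36 and -0.94. With the covariate, Csf1 turned to -1.48 and Tnfsf11 to -2.75, in a fit where only P-SSC libraries link the classes. Tnfrsf11b, near 0, turned to 0.49 with a pseudocount of 5, 0.98 with quantile normalization, 0.31 with the GC correction, 2.13 with edgeR and 2.13 with DESeq2, and lay between -1.25 and 2.03 when each library was left out. The cause was not tested. In P-SSCs against BM-MSCs, 1 member was called and 2 with median centring (Csf1 -1.61), quantile normalization (-1.68) and the covariate (-2.18), and without each library 1 or 2 were called, with Csf1 between -2.18 and -1.15.

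Deviations from the group means of same-numbered libraries correlated by -0.0191 to 0.0295. These correlations cannot tell whether libraries of the same number came from the same mouse, so the pairing is not known. With the replicate number as a block, 1 member was called in graft BM-MSCs against P-SSCs (Csf1 1.68, Tnfsf11 7.24) and 0 against BM-MSCs (Il34 -0.84, Tnfrsf11b 1.71), and the difference in the Tnfsf11 to Tnfrsf11b log2 ratio between graft BM-MSCs and BM-MSCs turned to -0.64. With the block and the GC correction together, chosen after seeing the data, 1 and 0 were called (Csf1 2.24, Tnfsf11 7.45, Il34 -0.40, Tnfrsf11b 2.00). No ratio within a GC class could be had for graft BM-MSCs against BM-MSCs. Over all genes, edgeR called 1384, 307 and 659 genes in the 3 comparisons, and limma 2464, 1046 and 1248, while DESeq2 called 3068, 2139 and 1682. Low read numbers limit Tnfsf11 and Tnfrsf11b, with 0 to 1818 reads a library, while Csf1 and Il34 had at least 591.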
